A study of Caenorhabditis elegans with 17 samples.

Results

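The transcriptome described here is that of day 1 adult Caenorhabditis elegans fed bacteria with the empty RNAi vector L4440. All of its libraries, and no others, were taken: 5 of the 17 libraries of the series, with 26786 genes measured in each. The animals carried the transgene rmIs133 [unc-54p::Q40::YFP], which expresses polyglutamine tagged with yellow fluorescent protein in body wall muscle under the unc-54 promoter. Libraries without the transgene were not used here. The animals described here were hatched from a timed egg lay on the L4440 plates, in E. coli HT115(DE3). They were collected as whole organisms after 96 h at 20 °C. RNA was taken from frozen pellets of many worms, so each library is a pool. The labels call the libraries biological replicates without saying whether they came from separate days. The 12 libraries of animals under RNAi of ash-2, of hsf-1 or of the pair were not used here.

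A young adult hermaphrodite is a reproducing animal. Its intestine makes yolk proteins, the vitellogenins, which oocytes take up, and its gonad fills with oocytes fertilised by stored sperm. Its epidermis has just laid down the adult cuticle, which consists largely of collagens, and most nuclei of the body wall muscle, neurons and epidermis have stopped dividing. RNA from whole animals therefore mixes a large germ line with somatic tissues in proportion to their RNA.

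Levels are FPKM, sequenced fragments scaled to the length of the transcript and to the depth of the library, so that genes of different length can be set side by side. A share of total FPKM approximates the share of transcript molecules; a share weighted by length approximates the share of sequenced fragments. Values of the 5 libraries are given in the order of replicates 1 to 5. An exact two-sided sign-flip test over 5 libraries cannot go below p = 0.0625, so levels were not compared by a test, and 2 levels are described as separate only where their ranges over the libraries do not overlap.

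The total FPKM per library lay between 751093 and 795802. Depth was estimated from protein-coding genes with 1 transcript, as the most common low value of FPKM times length in kb. Taken as 1 fragment, this value corresponds to about 18200000 to 18900000 fragments per library. It was read from the bins of a histogram, so it is coarse. This depth is an estimate, since the files used hold no counts, and intervals that need counts are not given. At that depth a level of 1 FPKM in a transcript of 1 kb stands for fewer than 20 fragments. Replicate 2 had the most genes at 1 FPKM or more, 12664, and replicate 5 the fewest, 11459. Across the 12010 genes with a mean of at least 1 FPKM, log2(FPKM + 0.5) of 2 libraries correlated with Pearson's r between 0.981 and 0.992, as a description across genes, which are not independent.

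In all 5 libraries 10978 genes reached 1 FPKM, 5894 reached 10 FPKM, 954 reached 100 FPKM and 125 reached 1000 FPKM. Of the 19483 protein-coding genes, 10892 were at 1 FPKM or more in every library and 1183 were listed at 0 in all of them. The 2976 piRNA genes, whose products are short RNAs that lack a poly(A) tail, gave 4 genes at 1 FPKM or more in all libraries. The mRNA was concentrated in few genes. The first 56 genes held 25% of total FPKM, the first 220 held 50% and the first 1247 held 75%. The top 100 genes held 34.9%, 33.5%, 39.5%, 36.2% and 36.4% of the total, highest in replicate 3 and lowest in replicate 2 (mean 36.1% ± 2.23, SD, n = 5). Of these 100 genes 93 were among the top 100 in every library.

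The most abundant mRNA was eef-1A.1, which encodes the elongation factor that brings aminoacyl-tRNA to the ribosome (chromosome III:6970026-6971712, build WBcel235). Its level was 9764, 8758, 10686, 9552 and 10974 FPKM, a mean of 9947 ± 895 (SD, n = 5) and 1.3% ± 0.112 of the total. Its lowest library, 8758 FPKM, lay above the highest library of the next gene, 5705 FPKM. That gene was rpl-2, named rpl-8 by RefSeq, a large-subunit ribosomal protein gene with 4565, 4396, 5705, 4857 and 4739 FPKM. From there on the order was not resolved: of the 29 neighbouring pairs among the top 30 genes, 28 had overlapping ranges, the exception being eef-1A.1 and rpl-2. The top 30 held 21 cytosolic ribosomal protein genes.

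The other 8 genes of the top 30 showed the remaining programmes of the animal. The fatty acid and retinol-binding protein gene far-2 had 4902, 4814, 4980, 4868 and 4120 FPKM, lowest in replicate 5. The cuticle collagens col-122, col-140 and col-119 had means of 4227 ± 341, 4096 ± 515 and 4038 ± 365 FPKM. Mitochondrial energy supply was represented by Y82E9BR.3, a lipid-binding subunit of ATP synthase, at 4180 ± 345 FPKM, and by the adenine nucleotide translocator ant-1.1, which exchanges ATP for ADP across the inner membrane, at 3709 ± 274 FPKM. The ribosome-associated scaffold gene rack-1 stood at 3481 ± 373 FPKM and the yolk protein gene vit-2 at 3479 ± 289 FPKM (SD, n = 5 for each).

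**Figure D1:**
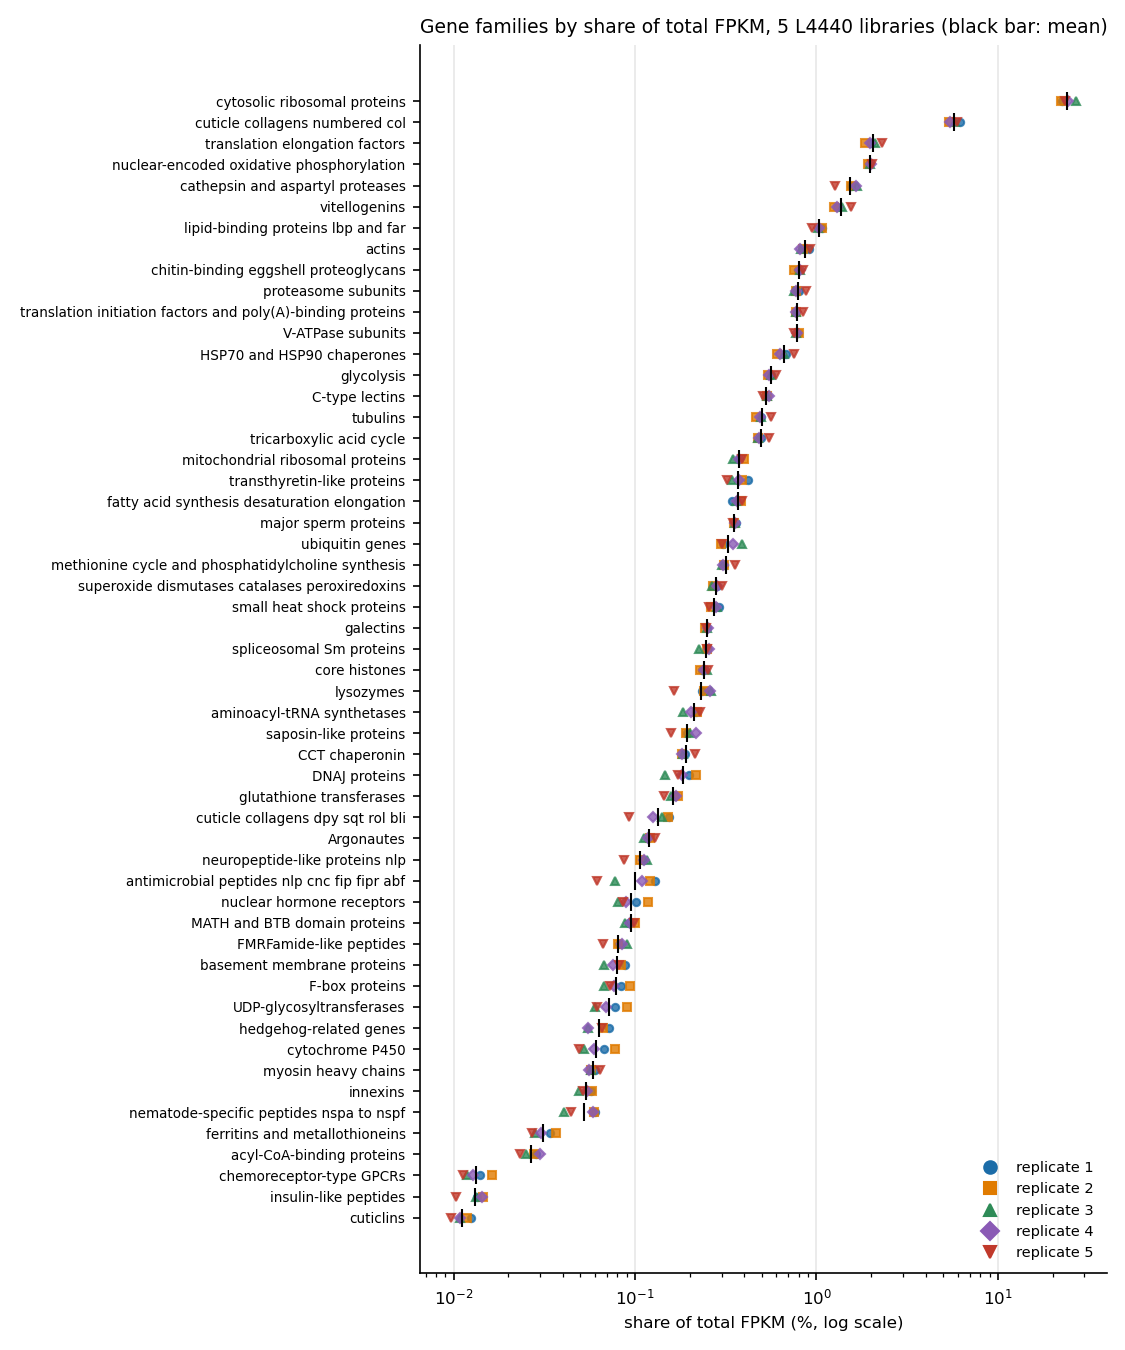
Share of total FPKM (x axis, percent, log scale) of 54 gene families in each of the 5 L4440 libraries, with the mean as a black bar, ordered by mean. Cytosolic ribosomal proteins lie apart at the top with a mean of 23.9%, and chemoreceptor-type receptors, insulin-like peptides and cuticlins lie at the bottom near 0.01%.

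Protein synthesis took the largest share. The 80 cytosolic ribosomal protein genes held 22.6%, 22.2%, 26.9%, 24.5% and 23.4% of total FPKM, a mean of 23.9% ± 1.87 (SD, n = 5). Replicate 3 was highest and replicates 1 and 2 were lowest. The same held for the top 100 genes as a whole, but 61 of those belong to this family. With members that carry a ribosomal name only in RefSeq the family had 85 genes and 25.3% ± 1.96. Because these mRNAs are short, their length-weighted share was lower, 12.6% ± 1.25. The level within the family was even: 79 of 80 genes were at 1 FPKM or more in every library, the median gene had 2384 FPKM, and the top gene rpl-2 held 2.65% of the family. At the low end were rpl-37 with 11.7 FPKM and rpl-42 with 0.543 FPKM.

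The 6 genes of the translation elongation factors followed with 2.04% ± 0.164, of which eef-1A.1 made up 63.7%. The GTPase eef-2, which moves the ribosome along the mRNA, had 2107 ± 192 FPKM and the subunit gene eef-1G 1782 ± 175 FPKM. Initiation factors and poly(A)-binding proteins (34 genes, all detected in every library) held 0.782% ± 0.036, led by pab-1 at 1167 ± 72.4 FPKM. By contrast the 71 mitochondrial ribosomal protein genes, all detected in every library, held 0.376% ± 0.0208, with a median gene of 38.6 FPKM against 2384 FPKM for their cytosolic counterparts. The 31 aminoacyl-tRNA synthetase genes, which charge tRNAs, held 0.21% ± 0.0173.

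The numbered cuticle collagens were the second family, separate from those on either side, with 6.18%, 5.34%, 5.79%, 5.42% and 5.92% of total FPKM (mean 5.73% ± 0.35, SD, n = 5). They were uneven: 106 of 156 genes were at 1 FPKM or more in every library, 19 averaged under 0.1 FPKM, and col-122, col-140 and col-119 together held 28.2% of the family. The adult collagen gene col-19, which is switched on at the last moult, had 1405, 1236, 1456, 1316 and 1246 FPKM. In contrast the body-shape collagens, whose mutants are dumpy, squat, roller or blistered and which are made chiefly during larval moults, held 0.133% ± 0.0253 over 19 genes, all detected. Their leading genes were dpy-4 at 172 ± 40.4, dpy-13 at 153 ± 34.1 and dpy-5 at 138 ± 35.3 FPKM. In replicate 5 this family held 0.0925%, against 0.125% to 0.155% in the other libraries. Cuticlins, proteins of the insoluble cuticle fraction, held 0.0111% ± 0.00104, of which cut-2 made up 57.2%.

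Among the listed genes of energy metabolism, those of oxidative phosphorylation had the steadiest share. The 47 nuclear-encoded oxidative phosphorylation genes of the list were all detected in every library and held 1.96%, 1.91%, 1.98%, 2% and 2.02% of total FPKM (mean 1.97% ± 0.0409). The family's coefficient of variation, the SD as a percentage of the mean, was 2.07%, and its range overlapped that of the elongation factors. The highest genes of the list were the ATP synthase subunit genes atp-2 at 1643 ± 69.1 and atp-1 at 1414 ± 104.4 FPKM and the cytochrome c gene cyc-2.1 at 1635 ± 106 FPKM. Members were taken by gene symbol, and the list left out the more abundant ATP synthase subunit gene Y82E9BR.3 described above. The share of the whole pathway is therefore larger than given here, and the family's place among the others and its spread hold for the listed genes only. Glycolysis held 0.562% ± 0.0208 and was led by the aldolase gene aldo-2 at 735 ± 55.5 and the enolase gene enol-1 at 673 ± 49.6 FPKM. The tricarboxylic acid cycle held 0.496% ± 0.0313, with 0.55% in replicate 5 and 0.475% to 0.496% in the other libraries, and had the citrate synthase gene cts-1 at 712 ± 53.3 FPKM. The mitochondrially encoded genes were not analysed here: total FPKM is the sum over the genes of the table used, of which 26780 of 26786 were matched to the RefSeq table, all on nuclear chromosomes.

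The yolk protein genes were sixth among the families by mean share, but their range overlapped that of the cathepsin and aspartyl proteases just above them. The 6 vitellogenin genes held 1.29%, 1.25%, 1.38%, 1.31% and 1.55% of total FPKM, highest in replicate 5 (mean 1.36% ± 0.118). As their mRNAs are long, the length-weighted share was 5.51% ± 0.456, beside 4.66% ± 0.295 for the numbered cuticle collagens. The order by mean was vit-2 (3479 ± 289 FPKM), vit-6 (3039 ± 119.3), vit-5 (1724 ± 213), vit-4 (951 ± 166), vit-3 (753 ± 192) and vit-1 (421 ± 124). The ranges of vit-2 and vit-6 overlapped, as did those of vit-4 with vit-3 and of vit-3 with vit-1, whereas vit-5 was separate from both of its neighbours. vit-3, vit-4 and vit-5 are near-identical in sequence, so reads may have been split between them and their separate levels are uncertain. The receptor that takes yolk into oocytes, rme-2, had 260, 256, 303, 279 and 346 FPKM. The 17 lipid-binding lbp and far genes were all detected and held 1.03% ± 0.0507, of which far-2 made up 60.1%. Their second gene was far-1 with 1329 ± 84.9 FPKM.

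Digestive and lysosomal genes were also among the larger families. The cathepsin and aspartyl protease genes held 1.55%, 1.54%, 1.68%, 1.66% and 1.26%, lowest in replicate 5 (mean 1.54% ± 0.165), and 20 of 27 were detected in every library. Their top gene asp-1, an aspartyl protease of the gut, had 3007, 2808, 3652, 3351 and 2332 FPKM, and cpl-1, a cathepsin L, had 1311 ± 27.6 FPKM, the more even of the pair. The 20 subunit genes of the V-ATPase, the proton pump that acidifies lysosomes, held 0.78% ± 0.0196, led by vha-2 at 1111 ± 72.6 FPKM. The proteasome's 33 genes held 0.792% ± 0.0482, from 408 ± 12.2 FPKM for pbs-1 down to 9.46 FPKM for rpn-6.2. The range of the V-ATPase overlapped that of the HSP70 and HSP90 chaperones, which held 0.666% ± 0.0558.

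The chaperone mRNAs differed widely in level. The constitutive cytosolic HSP70 gene hsp-1 had 2166, 1825, 2226, 2016 and 2266 FPKM and hsp-90 had 1542 ± 209 FPKM. The HSP70 genes of the endoplasmic reticulum and of mitochondria that respond to stress there, hsp-4 and hsp-6, had 185 ± 17.4 and 325 ± 16.9 FPKM. The heat-inducible hsp-70 had 1.26 ± 0.472 FPKM. The inducible HSP70 genes F44E5.4 and F44E5.5 are near-identical copies whose reads cannot be assigned with certainty. F44E5.4 had 50.3, 29, 11.3, 10.5 and 16.7 FPKM, and its copy had 50.5, 29.2, 11.1, 10.6 and 16.8 FPKM. Both were highest in replicate 1. Among the 14 small heat shock protein genes, 82.2% of the level came from sip-1, a form known from oocytes and embryos, with 1720.4 ± 135 FPKM. The 8 subunit genes of the CCT chaperonin, which folds actin and tubulin, held 0.19% ± 0.0139, and replicate 5 with 0.214% lay above the other libraries (0.181% to 0.19%).

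Genes that supply methyl groups and resist oxidation were each dominated by one enzyme. The methionine cycle and phosphatidylcholine synthesis genes held 0.316% ± 0.023, of which the S-adenosylhomocysteine hydrolase gene ahcy-1 made up 51.9% with 1251 ± 90.1 FPKM. Superoxide dismutases, catalases and peroxiredoxins held 0.28% ± 0.0136, of which the peroxiredoxin gene prdx-2 made up 66.2% with 1417 ± 60.2 FPKM. Fatty acid synthesis, desaturation and elongation held 0.368% ± 0.0173 and was spread more widely, with the delta-12 desaturase gene fat-2 at 400.1 ± 21.7 FPKM.

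Defence and detoxification families differed in size and level. Among the 228 C-type lectin genes, which encode carbohydrate-binding proteins, 68 were detected in every library and 79 averaged under 0.1 FPKM. Of the family's level 61.8% came from 3 genes, clec-87 at 1288 ± 92.5, clec-63 at 977 ± 156 and clec-88 at 230.0 ± 12 FPKM. The 61 antimicrobial peptide genes, many of them epidermal, held 0.129%, 0.122%, 0.0773%, 0.109% and 0.062% of total FPKM, the largest relative spread of the 54 families (coefficient of variation 29%). The lysozymes, which cut bacterial cell walls, held 0.164% in replicate 5 and 0.234% to 0.261% in the other libraries. Their gene lys-7 had 411, 420.5, 532, 491 and 234 FPKM. Cytochrome P450 genes held 0.0612% ± 0.0117 (43 of 74 detected in every library) and nuclear hormone receptors 0.0949% ± 0.0149 (114 of 268). The leading receptor was nhr-49, a regulator of fat metabolism, at 48.2 ± 5.16 FPKM.

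Chemoreceptor and insulin-like genes were among the lowest families, and neuropeptide genes stood higher. Of 1097 chemoreceptor-type receptor genes, which serve sensory neurons, 9 reached 1 FPKM in every library and 992 averaged under 0.1 FPKM, and together they held 0.0132% ± 0.00199. Neuropeptide genes were detected more widely: 30 of 31 FMRFamide-like peptide genes and 48 of 63 nlp genes were at 1 FPKM or more in every library. The top nlp gene was nlp-40, whose peptide is released by the intestine and times defecation, at 159 ± 16.21 FPKM. The top flp gene was flp-28 at 81.3 ± 10.9 FPKM. The 38 insulin-like peptide genes held 0.0132% ± 0.00171, with ins-4 at 18.8 ± 3.94 FPKM.

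The make-up of the samples was read from 17 lists of marker genes, with 267 listings found in the table, of which 208 were at 1 FPKM or more in all 5 libraries. In whole animals fewer cells of a type and less RNA per cell cannot be told apart. These levels thus describe the RNA of the listed genes and say nothing about cell numbers. The sum of a list also depends on which genes were put on it, so sums do not rank tissues by their RNA. Of the 9 male genes none was at 1 FPKM or more in every library. The polycystin genes lov-1 and pkd-2, which male sensory neurons use in mating, averaged 0.00889 and 0.039 FPKM, cwp-1 was listed at 0 in every library, and the highest member, the transcription factor gene mab-3, averaged 0.66 FPKM. Of the 16 genes of larval moulting and the apical matrix, 15 were at 1 FPKM or more in every library, with a median of 10.2 FPKM. This list summed to 192, 209, 152, 154 and 114.6 FPKM. The epidermal list summed to 2189, 1971, 2175, 1923 and 1750.5 FPKM, most of which was the adult collagen col-19.

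The germ line was visible through all of its markers. All 31 germline genes were detected in every library, with a median of 49.2 FPKM and a sum of 4492, 4395, 4585, 4531 and 5006 FPKM, highest in replicate 5. The highest members were car-1 (1148 ± 107 FPKM) and cgh-1 (1014 ± 52.3 FPKM), components of the particles that store maternal mRNA, and gld-1 (571 ± 50.1 FPKM), a translational repressor of early oocytes. The Piwi gene prg-1 had 106 ± 9.4 FPKM and the Notch receptor gene glp-1, which keeps germline stem cells in mitosis, 32.3 ± 2.75 FPKM.

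All 25 oocyte and maternal genes were detected in every library, and the lowest averaged 54.9 FPKM. Their sum of 10223, 10026, 11479, 10950.3 and 11446 FPKM was more than that of the general germline list in each library. Eggshell genes led: the chondroitin proteoglycan genes cpg-1 and cpg-2 had 1357 ± 113 and 1346 ± 118.6 FPKM. The permeability barrier genes perm-2 and perm-4 had 1125 ± 58.9 and 1116 ± 45.6 FPKM. As a family the 16 chitin-binding eggshell genes held 0.804% ± 0.0341 of total FPKM. Maternal RNA-binding regulators of the early embryo followed, with pos-1 at 816 ± 77.9, spn-4 at 689.5 ± 72.7 and mex-5 at 529 ± 38 FPKM.

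The animals store sperm made before adulthood. The sperm list, which leaves out the major sperm proteins, had a median of 16 FPKM, below the 49.2 FPKM of the germline list. Of 29 sperm genes 24 were detected in every library, and the list summed to 741, 767, 569, 678 and 615 FPKM, lowest in replicate 3. The 31 major sperm protein genes, which make the motile cytoskeleton of nematode sperm, held 0.359%, 0.349%, 0.353%, 0.356% and 0.347% of total FPKM. Their coefficient of variation of 1.41% was the smallest of the 54 families. Their median gene had 84.6 FPKM, above the median of the germline list. The top genes, msp-59 at 199 ± 18.3, msp-53 at 182 ± 16.9 and msp-57 at 181 ± 13 FPKM, are near-identical to other copies, so the family sum is firmer than the single levels. The genes spe-9, spe-38, snf-10 and fer-1, which act in sperm activation or fertilisation, each averaged under 1 FPKM.

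Of the 16 genes first switched on in the embryo, 7 were detected in every library and 8 averaged under 1 FPKM. The endoderm specification genes end-1, end-3, med-1 and med-2 averaged 0.498, 0.297, 0.082 and 0.141 FPKM. The gene med-1 was above 0 in replicate 1 only. The highest member was pal-1, whose mRNA is also supplied by the mother, with 72.4, 76.6, 74.1, 74.6 and 75.3 FPKM.

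The intestine list had the highest sum of the 17 lists, 15433, 15125, 17611, 16334 and 16182 FPKM, and 23 of its 24 members were detected in every library. Vitellogenins and proteases led it. The brush-border actin gene act-5 had 787 ± 29.5 FPKM and the intermediate filament gene ifb-2 94.7 ± 6.66 FPKM. The GATA factor genes of the tissue were low, elt-2 at 6.6 ± 1.65 and elt-7 at 8.25 ± 1.09 FPKM. The saposin-like gene spp-5 had 455, 448, 487, 525 and 361 FPKM, and the cathepsin B gene cpr-1 had 1122, 1184, 1271, 1243 and 736 FPKM. Both were lowest in replicate 5, the library in which the vitellogenin share was highest. The member missed by the detection rule was the ferritin gene ftn-1, with 2.74, 2.9, 0.596, 1.38 and 0.841 FPKM.

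The body wall muscle list had the most even sum, 7247, 7205, 7583, 7187 and 7428 FPKM (coefficient of variation 2.33%), and 22 of its 23 members were detected in every library. Filament genes were at high levels: the myosin light chain gene mlc-2 at 1024 ± 76.8, the troponin C gene pat-10 at 836 ± 59.4, the troponin I gene unc-27 at 498 ± 16.46 and the paramyosin gene unc-15 at 309 ± 13.9 FPKM. The major myosin heavy chain gene unc-54 had 312, 278, 326, 297 and 355 FPKM. The minor heavy chain gene of the same filaments, myo-3, had 18.4, 17.9, 16.18, 16.6 and 16.4 FPKM, so the pair did not overlap. All animals carried the transgene with the unc-54 promoter, and whether untranslated parts of it added reads to unc-54 was not tested. The giant muscle genes had the lowest levels of the list: unc-22 (twitchin) averaged 4.18, unc-89 (obscurin) 3.13 and ttn-1 (titin) 0.57 FPKM, with longest transcripts of 21601, 24703 and 45903 nucleotides.

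Neurons were visible through a part of their genes. Of 30 neuronal markers 18 were detected in every library and 10 averaged under 1 FPKM. The synaptobrevin gene snb-1 had 278 ± 12.7 FPKM and the neuropeptide-processing cofactor gene sbt-1 76.9 ± 10.7 FPKM. Genes of transmitter synthesis differed: tdc-1 and tbh-1, which make tyramine and octopamine and are also known from gonadal sheath cells, had 77.6 ± 8.57 and 63.2 ± 6.69 FPKM. The serotonin gene tph-1 and the dopamine gene cat-2 had 0.14 ± 0.0579 and 0.196 ± 0.0913 FPKM. Glial and coelomocyte genes were at the limit of detection, with 1 of 7 and 0 of 3 members detected in every library. The coelomocyte sum was 4.75, 2.02, 2.38, 2.02 and 2.56 FPKM, highest in replicate 1.

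Among genes of one biochemical role, one member often dominated. Of the elongation factor pair, eef-1A.1 made up 94.7% ± 0.375 and eef-1A.2 the remaining 5.32%. The leading gene held more still in other sets: ant-1.1 held 99.4% ± 0.0917 of the adenine nucleotide translocators, cyc-2.1 99.4% ± 0.242 of the cytochrome c pair, ftn-2 99.2% ± 0.434 of the ferritin pair and pab-1 98% ± 0.409 of the poly(A)-binding proteins. Of the delta-9 desaturases that make monounsaturated fatty acids, fat-6 had 172 ± 40.6 FPKM, fat-5 13.4 ± 1.79 and fat-7 0.645 ± 0.273. In each of these sets the leading gene did not overlap with the next.

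Other sets were shared. Of the glyceraldehyde 3-phosphate dehydrogenase genes gpd-3 made up 41.1%, gpd-2 27.5%, gpd-1 18.6% and gpd-4 12.8%, with separate ranges, though similar copies may have exchanged reads. The actin genes act-2, act-1 and act-3 overlapped at 1695 ± 174, 1551 ± 85.5 and 1457 ± 64.4 FPKM and are near-identical. The cyclin B genes, which drive entry into division, were led by cyb-3 with 743 ± 86.7 FPKM, 59% of the set. Of the eIF5A pair the germline form iff-1 made up 69.3% ± 2.22 and iff-2 the rest. The tubulin genes tbb-2 (1238 ± 119.6 FPKM) and tba-2 (1126 ± 90.4 FPKM) led the beta and alpha sets with 63.3% and 61.9%.

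**Figure D2:**
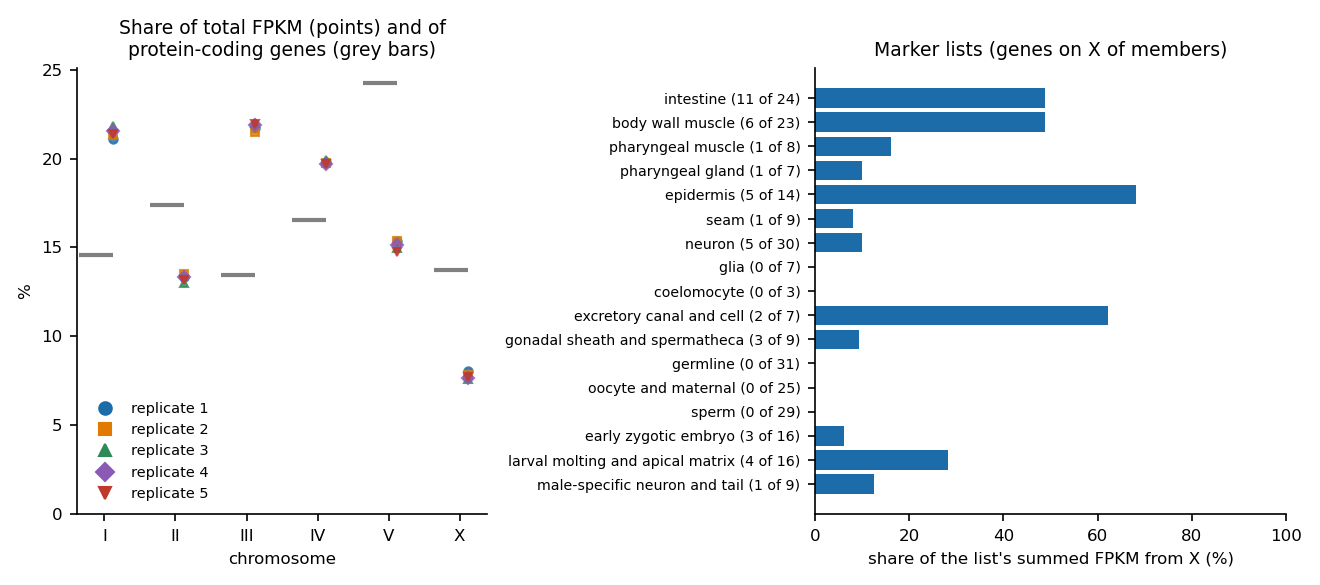
Left, share of total FPKM (y axis, percent) from each chromosome in the 5 L4440 libraries (points), beside the share of protein-coding genes (grey bars). Right, share of the summed FPKM of each marker list (x axis, percent) that came from genes on X, with members on X of all members in brackets; X holds 13.8% of genes and 7.77% of FPKM, and the germline, oocyte and sperm lists have no member on it.

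The chromosomes contributed unequally. The X chromosome, which in this species is known to carry few genes active in the germ line, held 2681 protein-coding genes, 13.8% of their number, and 8.05%, 7.83%, 7.63%, 7.66% and 7.7% of FPKM (mean 7.77% ± 0.174, SD, n = 5). Chromosomes III and I gave 21.8% ± 0.202 and 21.4% ± 0.273 of FPKM from 13.4% and 14.6% of the genes. Chromosome V, with 24.3% of the genes, gave 15.1% ± 0.267. The range of X lay below that of every autosome. Among protein-coding genes with a mean of at least 1 FPKM the median was 6.39 FPKM on X, against 10.1 FPKM on V, the next lowest, and 18.5 FPKM on III, the highest. Only 2 of the 85 ribosomal protein genes by either name lie on X, and without these genes on any chromosome X held 10.2% of protein-coding FPKM, still the lowest of the 6 chromosomes.

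The leading genes of X were those of somatic tissues. None of the 85 members of the germline, oocyte and sperm lists lies on X. Of the intestine list 11 of 24 members do, and they gave 48.8% of its summed FPKM, with all of the vitellogenin genes but vit-6 among them. For body wall muscle the share was 48.9% from 6 of 23 members, and for the epidermis 68.2% from 5 of 14, mostly col-19. The top genes of X were vit-2 at 3479 FPKM, the collagen genes col-181 at 2700.3, col-184 at 1979 and col-178 at 1931 FPKM, and vit-5 at 1724 FPKM, which together gave 19.9% of the X total. F46H5.3, annotated as an arginine kinase in the deposited table, followed with 1362 ± 125 FPKM.

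**Figure D3:**
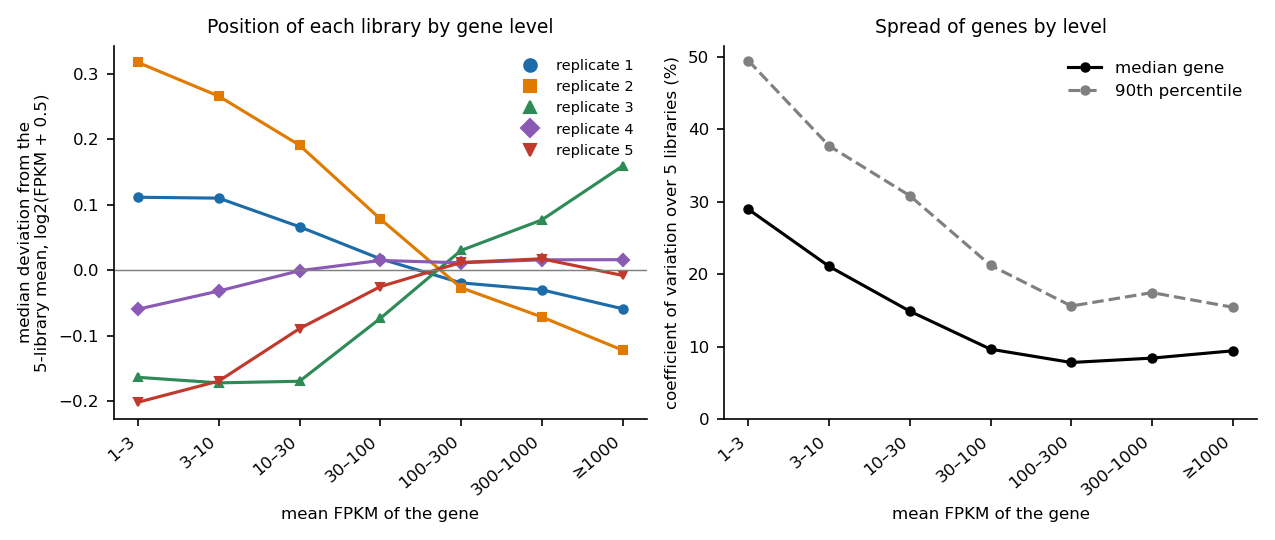
Left, median deviation of each L4440 library from the 5-library mean (y axis, log2(FPKM + 0.5)) for genes grouped by mean FPKM (x axis). Right, coefficient of variation over the 5 libraries (y axis, percent) of the median gene and of the 90th percentile in the same groups; replicate 2 goes from 0.32 at 1 to 3 FPKM to -0.12 at 1000 or more, and replicate 3 from -0.16 to 0.16.

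The spread between libraries depended on the level of the gene. For the 6551 genes with a mean of at least 10 FPKM the median coefficient of variation was 11.4%. It was 29% for genes of 1 to 3 FPKM, 14.9% for those of 10 to 30, 7.83% for those of 100 to 300 and 9.44% for those of 1000 or more. The libraries were also tilted against one another. In median log2(FPKM + 0.5), replicate 2 deviated from the mean of the libraries by 0.32 in genes of 1 to 3 FPKM and by -0.12 in those of 1000 or more. Replicate 3 ran the other way, from -0.16 to 0.16. Replicate 4 stayed between -0.06 and 0.02 in all 7 ranges of level. As FPKM is relative to the total of a library, more of the abundant mRNAs leaves less for the rest, and what produced this tilt was not tested.

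The steadiest genes with a symbol at 10 FPKM or more included the following 3. The lactate dehydrogenase gene ldh-1 had 113, 112, 110.2, 110.1 and 111 FPKM, a coefficient of variation of 1.297%. The ubiquitin-conjugating enzyme gene ubc-6 had 66.9, 66.6, 68.4, 68.2 and 66.6 FPKM, and the poly(U) polymerase gene pup-2 136, 137, 132, 134 and 135 FPKM. In all, 667 of the 6551 genes varied by less than 5%. At the other end 114 genes varied by more than 40%, and 92 of these were highest in replicate 2. Without replicate 2 the number of such genes was 47, without replicate 1 it was 210 and without replicate 4 it was 179. Among the 10 most variable genes with a symbol were the splicing genes snu-66, mfap-1 and prpf-4, each highest in replicate 2. The first of them, snu-66, had 9.8, 24.1, 9.6, 5.303 and 9.0 FPKM.

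Ribosomal RNA was the clearest departure of 1 library. The 18 rRNA genes of the table gave 0.388%, 0.436%, 0.395%, 0.392% and 1.154% of total FPKM, and their summed FPKM in replicate 5 was 2.81 times the mean of the others. The labels name an mRNA kit, and such kits select poly(A) RNA, which rRNA lacks. The large-subunit gene rrn-3.1 had 1282, 1430.3, 1398, 1339.8 and 3630.1 FPKM and the small-subunit gene rrn-1.1 519, 591, 558, 526 and 1692 FPKM. Copies of these genes are repeats of one sequence, so reads may be spread among them. With rRNA genes left out of the total, the share of every family moved by less than its SD.

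**Figure D4:**
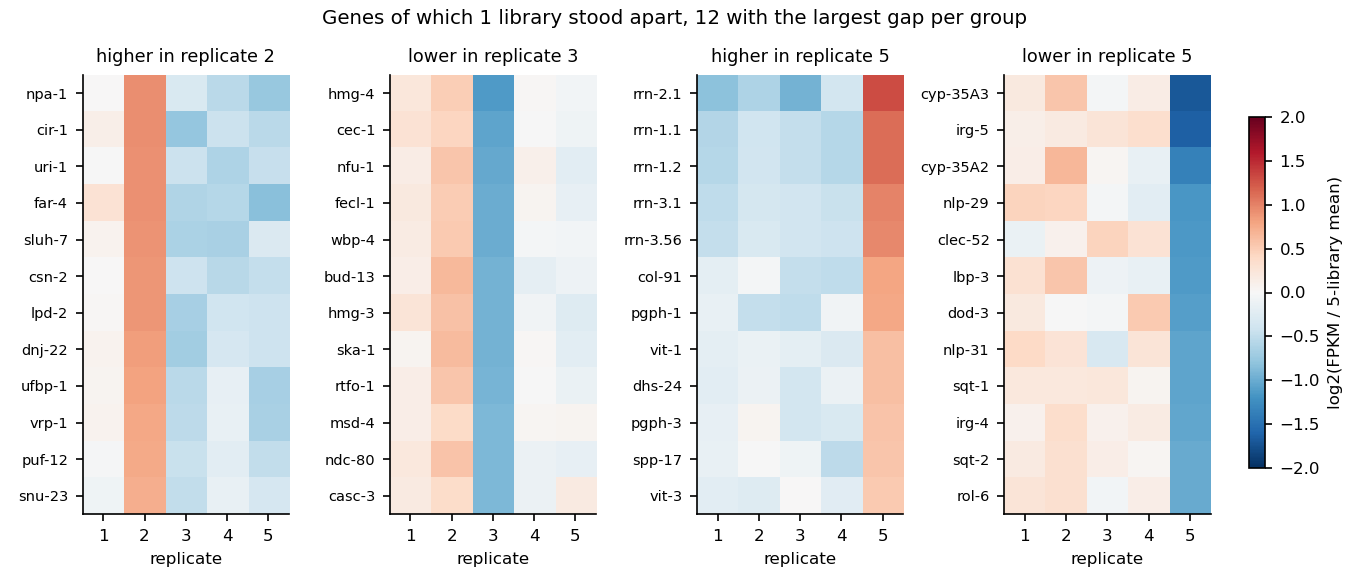
Log2 ratio of each L4440 library (columns, replicates 1 to 5) to the 5-library mean (colour) for genes with a symbol of which 1 library stood apart, those with the largest gap in each panel. The genes were chosen by these values; in replicate 5 rRNA genes, vit-1 and vit-3 lie above, and irg-5, nlp-29 and sqt-1 below, the other libraries.

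The 4708 genes with a mean of at least 20 FPKM were searched for those in which 1 library lay more than 1.3 times above or below all others. The genes were chosen by these values, which are a description. Replicate 5 had 40 such genes above (0.85% of those searched) and 161 below (3.42%). Replicate 3 had 1 above (0.0212%) and 225 below (4.78%), and replicate 2 had 138 above (2.93%) and 1 below (0.0212%). Replicate 1 had 10 above and 3 below and replicate 4 had 2 and 3. After the libraries were brought to one scale by median-of-ratios size factors there were 101 above and 92 below for replicate 5, 37 and 120 for replicate 3, and 34 and 34 for replicate 2. The one-sidedness of replicates 2 and 5 thus depended on the scale. Of the 92 genes below in replicate 5 on the second scale, 91 were also below on the deposited scale.

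Genes of the body surface and of defence were found among those low in replicate 5. Of the 161, 23 carried an immune or defence annotation (14.3%, against 2.34% of the 4708 genes searched) and 16 a cuticle or collagen one (9.94%, against 2.61%), by the gene ontology terms of the deposited table. The annotation groups were chosen after the values were seen. On the second scale these were 20 and 10 of 92. The epidermal antimicrobial peptide gene nlp-29 had 58, 57.6, 41.6, 36.9 and 19.1 FPKM, and nlp-31 had 62.6, 57.6, 38.3, 57.3 and 23 FPKM. The infection response gene irg-5 had 59.6, 62, 65.6, 69.6 and 17.8 FPKM. Both kinds were thus lowest in replicate 5. Among body-shape collagen genes sqt-1 had 50.2, 49.8, 50.4, 44.8 and 20.9 FPKM and rol-6 25.4, 26.5, 20.5, 23.5 and 10.6 FPKM. The cytochrome P450 gene cyp-35A3, known to respond to foreign compounds, had 37.4, 48.3, 32, 36.3 and 10.1 FPKM. These too were lowest there. Cuticle genes were also found among those high in replicate 5, 2 of 40 on the deposited scale (5%) and 7 of 101 on the second (6.93%). Nor were low cuticle genes particular to replicate 5. On the second scale they were 6 of the 34 genes low in replicate 2 (17.6%) and 2 of the 3 low in replicate 4. The share of the numbered collagens in replicate 5, 5.92%, was the second highest.

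Yolk genes other than vit-2 went the other way in the same library. The gene vit-1 had 368, 382, 368, 344 and 642 FPKM and vit-3 651, 633, 758, 641 and 1084 FPKM, and vit-4, vit-5 and, by a narrow margin, vit-6 were also highest in replicate 5. The highest library of vit-2 was replicate 3, with 3930.3 FPKM. The larval moulting list was also lowest in replicate 5, at 114.6 FPKM against 152 to 209 FPKM in the other libraries. The adult collagen gene col-19, with 1246 FPKM in replicate 5, lay within the range of the others (1236 to 1456 FPKM). Whether the animals of replicate 5 differed in stage was not tested.

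Among the genes high in replicate 2 and those low in replicate 3 most had none of the annotations counted here. RNA splicing was annotated for 10 of the 138 genes high in replicate 2 (7.25%) and 18 of the 225 low in replicate 3 (8%), against 2.95% of the genes searched. On the second scale these were 3 of 34 and 14 of 120. Chromosome segregation or the kinetochore was annotated for 8 genes of each set (5.8% and 3.56%, against 1.57%), and on the second scale for 4 genes of each. The sets shared 24 genes, 17.4% of the first and 10.7% of the second. The splicing gene sluh-7 had 21.1, 37.4, 12.9, 12.8 and 16.52 FPKM, highest in replicate 2. The histone chaperone gene hmg-4 had 35.1, 42.1, 13.7, 30.4 and 29 FPKM and its relative hmg-3 45.9, 58.2, 20.1, 36.6 and 32.3 FPKM. The kinetochore gene ndc-80 had 32.6, 41.8, 15.1, 26 and 25.1 FPKM. These 3 were lowest in replicate 3. The median level of the genes high in replicate 2 was 27.2 FPKM and of those low in replicate 3 31.2 FPKM, against 46 FPKM for all genes searched. At 10 to 30 FPKM the 2 libraries deviated by 0.19 and -0.17 (log2) as a whole.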

How the data were processed

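The 5 libraries of day 1 adults on L4440 were described. The values are the authors' FPKM per gene, deposited in 1 table. The tools cutadapt, HISAT2, StringTie and DESeq2 and the genome build WBcel235 are named per the submitters' processing notes, without their versions or the column each tool gave. Libraries were made with a TruSeq stranded mRNA kit from 1 to 5 µg of RNA, per the labels' protocols. FPKM are not counts, so no count model was used. FPKM also ties each gene to the total of its library.

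Shares of total FPKM, means, SDs and coefficients of variation were computed from the deposited FPKM in Python 3.11.15 (numpy 2.4.6, pandas 2.3.3). Detection means at least 1 FPKM in each library, and log2 values have a pseudocount of 0.5. Gene positions came from the RefSeq gene table of WBcel235 (26780 of 26786 genes matched) and lengths of longest transcripts from Ensembl release 115 (26077 genes). Depth was estimated from the most common low value of FPKM times transcript length, at 18200000 to 18900000 fragments. The computations were tested on simulated data, with a coefficient of variation of 10% at every level and no tilt between libraries, unlike the data. Of 200 genes raised in 1 simulated library, the search recovered 62.5% at 1.5-fold and 99.5% at 2-fold. At each of these folds it also called 4 genes above in that library that had not been raised. Smaller changes were not simulated.

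The members and lists were chosen with earlier results of these data known. Genes were named from the 30 with the highest mean, the 3 highest of each family, list and set, list members under 1 FPKM and the 10 most and 10 least variable with a symbol at 10 FPKM or more; others were named after their values were seen. The alternatives tried were single replicates left out, medians, other thresholds, totals, pseudocounts and size factors. The 26 FPKM columns of the pairwise comparison tables were not used, and promoter sequences were not analysed here.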

Additional observations from a re-analysis of the deposited data

Results flagged for a closer look

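In 230 sets of 5 values (shares, list sums and the genes named here) the distance of the highest or lowest library to its nearest neighbour was set against the whole range, with 0.71 as the limit. It was passed in 22 sets (9.57%). Chance alone passes about 1 in 20, but many of these genes were named because they stood apart, so the 2 rates cannot be compared. Replicate 5 was the outlying library in 15 sets, replicate 2 in 4, replicate 1 in 2, replicate 3 in 1 and replicate 4 in 0. The sets are not independent, since families hold some of the genes and lists share members.

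Replicate 5 lay above the others in the rRNA share (1.154%, against 0.388% to 0.436%), with rrn-1.1 at 1692 FPKM and rrn-3.1 at 3630 FPKM. It was also above them in initiation factors and poly(A)-binding proteins (0.846%, against 0.759% to 0.769%), the tricarboxylic acid cycle (0.550%, against 0.475% to 0.496%), the methionine cycle (0.356%, against 0.300% to 0.310%) and the CCT chaperonin (0.214%, against 0.181% to 0.190%). The yolk protein genes vit-1 and vit-3 stood at 642 and 1084 FPKM there, against 344 to 382 and 633 to 758 FPKM.

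Replicate 5 lay below the others in the lysozymes (0.164%, against 0.234% to 0.261%) and in 5 named genes. These were far-2, a lipid-binding protein gene (4120.3 FPKM, against 4814 to 4980 FPKM), the protease gene cpr-1 (736 FPKM, against 1122 to 1271 FPKM), the infection response gene irg-5 (17.8 FPKM, against 59.6 to 69.6 FPKM), the collagen gene sqt-1 (20.9 FPKM, against 44.8 to 50.4 FPKM) and the sperm gene msp-57 (158 FPKM, against 185 to 189.6 FPKM).

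In replicate 2 the splicing genes snu-66 and prpf-4 stood at 24.1 and 21.97 FPKM, against 5.303 to 9.80 and 5.56 to 9.11 FPKM. The titin gene ttn-1 was at 0.741 FPKM, against 0.507 to 0.5678 FPKM, and the dopamine synthesis gene cat-2 at 0.358 FPKM, against 0.134 to 0.174 FPKM. In replicate 3 the spliceosomal Sm proteins held 0.226%, against 0.248% to 0.257%. In replicate 1 the coelomocyte sum was 4.75 FPKM, against 2.02 to 2.56 FPKM, and the endoderm gene med-1 was at 0.410 FPKM, against 0 in the others. What set these libraries apart was not tested.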

How the results depend on the processing

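The values of families, chromosomes, marker lists and gene sets were recomputed without each replicate, with medians in place of means, and, for shares, over genes averaging at least 1 FPKM or without rRNA genes. The pseudocounts of 0.1 and 1 were included. Of the values for single families, chromosomes, lists and sets, 649 moved by less than the spread between libraries and 2 by more. Leaving out 1 library, or taking the median, cannot shift a mean by more than that spread. Values under those settings were therefore bound to count as unmoved, and their number does not measure robustness. The 2 that moved came from changed totals. They were the chemoreceptor share (0.00832% over genes averaging at least 1 FPKM) and that of chromosome IV (19.9% without rRNA genes). The median coefficient of variation of 11.4% moved under all of its alternatives: it was 9.81% to 12.5% without single replicates, 12.1% with equal totals, 12.99% with size factors, 16.8% over genes averaging at least 1 FPKM and 30.1% with no filter. The cause was not tested, apart from the filters, which add genes of low level and larger spread. Genes detected in all libraries were 12340 at 0.5 FPKM and 9478 at 2 FPKM. The total without mitochondrially encoded genes was not run, as these genes were not analysed here. No paired analysis was possible because 1 group is described. Depth is an estimate, so levels under 1 FPKM carry few fragments and no interval.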

Other observations

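The small RNA and chromatin families were described in the same way, over whole animals. The 19 Argonaute genes, which bind small RNAs, held 0.119% ± 0.00656 of total FPKM, and 18 were detected in every library. They were led by wago-1 at 206 ± 22, hrde-1 at 161 ± 8.09 and prg-1 at 106 ± 9.4 FPKM. Core histones held 0.240% ± 0.00976; of 72 genes 50 were detected in every library, and the median gene had 2.71 FPKM. Of the level 63.6% came from 3 genes, led by his-72, an H3.3 variant, at 513 ± 20.3 FPKM. Many other histone genes are near-identical copies, and replication-dependent histone mRNAs of animals generally lack the poly(A) tails that mRNA kits select.

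Secreted and adaptor families formed broad groups. Transthyretin-like genes, a family expanded in nematodes, held 0.368% ± 0.038 with 44 of 57 detected in every library, led by ttr-15 at 516 ± 114 FPKM. F-box genes, which encode substrate adaptors of ubiquitin ligases, held 0.0786% ± 0.0104 with 73 of 319 detected. The ubiquitin fusion gene ubq-2 had 1807, 1748, 2567, 2158 and 1732 FPKM and ubl-1 1909, 1863, 2599, 2251 and 1824 FPKM. The first encodes ubiquitin and the second a ubiquitin-like domain, each joined to a ribosomal protein. Both were highest in replicate 3, the library with the largest ribosomal protein share, and their ranges overlapped. The gene ubl-1 is itself counted in the wider set of 85 ribosomal protein genes. The polyubiquitin gene ubq-1 had 505 ± 25.3 FPKM.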
